A study of Mus musculus with 8 samples.

Results

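The globin genes Hba-a1, Hba-a2, Hbb-bs, Hbb-bt and Hbb-y were taken by their symbols from the deposited gene tables, which list 14166 genes, so the set holds 5 of 14166 genes and all 5 were found. The series measured RNA of single nuclei from the dorsal telencephalon, the embryonic tissue that gives rise to the cerebral cortex, of C57BL/6J mice at E15.5. The 4 wildtype samples were compared with 4 samples of mice without Pantr2, a long noncoding RNA gene, labelled Pantr2 knockout or Pantr2-/- in the protocol. No other allele or agent is named for either group, and the labels do not say whether a sample is 1 embryo or a pool, so p-values measure only the spread between these samples. The counts of Pantr2 were not analysed here, and the genotype rests on the labels.

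Haemoglobin is built from alpha-like chains, encoded by a gene cluster on mouse chromosome 11, and beta-like chains, encoded by a cluster on chromosome 7. Primitive red cells, made in the yolk sac, use the embryonic beta-like gene Hbb-y and the embryonic alpha-like gene Hba-x. Definitive red cells, made in the fetal liver, use the adult genes Hba-a1, Hba-a2, Hbb-bs and Hbb-bt, and both kinds circulate in mid-gestation embryos. Neurons and their progenitors are not known as sources of haemoglobin for the blood, so globin RNA in a brain preparation is commonly read as RNA from blood.

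The deposited gene table places Hba-a1 at 32233511 to 32234465 and Hba-a2 at 32246489 to 32247298 of chromosome 11. It places Hbb-bt at 103461731 to 103463203, Hbb-bs at 103475741 to 103477303 and Hbb-y at 103500956 to 103502423 of chromosome 7. The table names no genome build. The bases just before the start of each gene are shown because the adult genes moved together across samples and Hbb-y did not. They are the 150 bases before the RefSeq start on GRCm38.p6, a different build from the positions above, with Hba-x added as the other embryonic gene. Capitals mark matches on either strand to any of the motifs CACCC, which erythroid Klf1 sites hold, CCAAT, a common promoter element, TATAA, the TATA box, GATAA, part of the site of Gata1, and GGTCA, part of the half-site of many nuclear receptors. Neighbouring matches run into each other where they overlap.
Hba-a1, chr11:32283522-32283671, plus strand: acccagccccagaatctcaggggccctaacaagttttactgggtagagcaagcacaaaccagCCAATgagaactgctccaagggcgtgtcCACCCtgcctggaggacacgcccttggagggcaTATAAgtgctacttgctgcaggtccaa
Hba-a2, chr11:32296342-32296491, plus strand: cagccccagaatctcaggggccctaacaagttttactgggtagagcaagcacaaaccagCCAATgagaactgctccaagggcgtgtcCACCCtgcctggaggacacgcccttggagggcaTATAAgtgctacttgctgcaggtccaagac
Hba-x, chr11:32276450-32276599, plus strand: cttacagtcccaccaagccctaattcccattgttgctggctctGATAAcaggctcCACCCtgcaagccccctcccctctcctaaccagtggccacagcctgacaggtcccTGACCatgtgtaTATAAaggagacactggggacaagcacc
Hbb-bs, chr7:103827929-103828078, minus strand: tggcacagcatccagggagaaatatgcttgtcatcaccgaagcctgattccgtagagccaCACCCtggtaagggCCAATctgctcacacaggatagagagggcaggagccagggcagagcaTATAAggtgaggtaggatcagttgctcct
Hbb-bt, chr7:103813924-103814073, minus strand: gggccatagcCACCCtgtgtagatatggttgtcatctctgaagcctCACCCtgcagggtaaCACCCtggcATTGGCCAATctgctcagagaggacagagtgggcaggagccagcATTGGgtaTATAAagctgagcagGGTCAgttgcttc
Hbb-y, chr7:103853208-103853357, minus strand: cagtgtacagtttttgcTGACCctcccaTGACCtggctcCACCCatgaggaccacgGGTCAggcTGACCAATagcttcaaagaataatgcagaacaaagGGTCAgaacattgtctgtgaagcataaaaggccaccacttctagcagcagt

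Hba-a1 and Hba-a2 shared a run of 147 bases in these windows of 150 bases. CACCC was in 6 of 6 windows, against 37.4% of all 32851 promoter windows of that length. CCAAT was in 5 of 6 windows (24.5% of all), with Hba-x the exception, and TATAA was in 5 of 6 (14.2% of all), with Hbb-y the exception. The Hbb-y window holds the near match CATAAAA towards its end, so only the exact letters TATAA are absent there. GGTCA was in 3 of 6 windows (23.1% of all). Hbb-y held 5 GGTCA matches, Hba-x held 1 and Hbb-bt held 1, and 1 match of Hbb-y overlaps its CCAAT. In 1 of 6 windows (13.3% of all), that of Hba-x, GATAA was found. A match of letters is a description and shows no binding.

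The near-identical transcripts limit what each adult gene's count means. Of the 31-base words of the main transcript in the GENCODE M21 annotation, 28.6% for Hba-a1 and 8.97% for Hba-a2 occur in no other gene, because the pair shares 477 words. Hbb-bs and Hbb-bt share 400 words and keep 33.1% and 40.6% of their own. In the last 200 bases, nearer to where a 3′ library reads, 159 and 160 of 170 words are their own for Hbb-bs and Hbb-bt, against 30 and 47 for Hba-a1 and Hba-a2. The split within the alpha pair is therefore uncertain, and that within the beta pair less so, as how reads of shared words were assigned is not given in the sources used here. Hbb-y and Hba-x have 100% of their words to themselves.

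The files held 67319 nuclei, 7280 to 10921 per sample, and 20446698 to 34083796 UMIs (unique molecular identifiers, counted RNA molecules) per sample. By markers, clusters 1 to 5 of the authors' 7 clusters were upper-layer-like, deep-layer-like (2 clusters), apical progenitor-like and intermediate progenitor-like, cells of the cortical excitatory lineage, while clusters 6 and 7 stayed unnamed. Too few of the erythroid markers looked for were analysed here to name a cluster by them. Of 66806 barcodes, 510 occurred in more than 1 library, and without their nuclei the Hbb-y level was 2.19 to 8.30 CPM (UMIs of the gene per 1000000 UMIs of the sample) in the wildtype and 14.9 to 46.4 in the knockout samples.

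Hbb-y, the embryonic beta-like gene, rose in the knockout, while no adult globin passed the test. The Hbb-y level over all nuclei was 2.16, 8.25, 5.53 and 5.46 CPM in wildtype replicates 1 to 4. In knockout replicates 1 to 4 it was 18.6, 46.1, 21.3 and 14.8 CPM. The groups did not overlap, and knockout replicate 2 stood highest. These levels rest on 51, 202, 139 and 148 Hbb-y UMIs in the wildtype samples and on 383, 1570, 509 and 303 in the knockout samples. The log2 fold change, knockout over wildtype, was 2.25 ± 0.42 (SE, n = 4 per group; edgeR's quasi-likelihood test, Benjamini-Hochberg adjusted p = 0.0149). Of the 13927 genes tested in that fit 5.26% were called, against 1 of the 5 globin genes. Without wildtype replicate 4 the call was lost at a like size (2.26, edgeR adjusted p = 0.0529). Over all 13 alternatives the fold change lay between 1.78 and 2.53, with edgeR or DESeq2 adjusted p of 0.000660 to 0.0529.

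Hbb-bs, the most abundant adult beta-like gene, measured 204, 205, 362 and 306 CPM in the wildtype samples. It measured 135, 152, 204 and 306 CPM in the knockout samples. The groups overlapped, with knockout replicate 4 as high as wildtype replicate 4, and the log2 fold change was -0.42 ± 0.28 (SE; edgeR adjusted p = 0.464). Hbb-bt, the second adult beta-like gene, measured 56.7, 64.8, 122 and 93.9 CPM in the wildtype samples. It measured 44.6, 61.1, 74.5 and 102 CPM in the knockout samples, with a log2 fold change of -0.25 ± 0.29 (SE; edgeR adjusted p = 0.703). Its sign was not stable, since the log2 fold change was 0.01 without wildtype replicate 3.

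Hba-a1, an adult alpha-like gene, measured 33.7, 34.5, 58.3 and 50.6 CPM in the wildtype samples. It measured 21.8, 36.0, 34.2 and 48.6 CPM in the knockout samples, a log2 fold change of -0.32 ± 0.25 (SE; edgeR adjusted p = 0.541). Hba-a2, its near-identical neighbour, measured 27.2, 27.7, 46.0 and 37.5 CPM in the wildtype samples. It measured 18.6, 28.0, 26.3 and 35.5 CPM in the knockout samples, a log2 fold change of -0.34 ± 0.22 (SE; edgeR adjusted p = 0.453). In all 4 adult genes wildtype replicates 3 and 4 and knockout replicate 4 were the high libraries. The plot of levels per sample shows these 3 libraries on top for each adult gene, with the order among the libraries varying by gene, while for Hbb-y the 4 knockout libraries are on top.

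**Figure D1:**
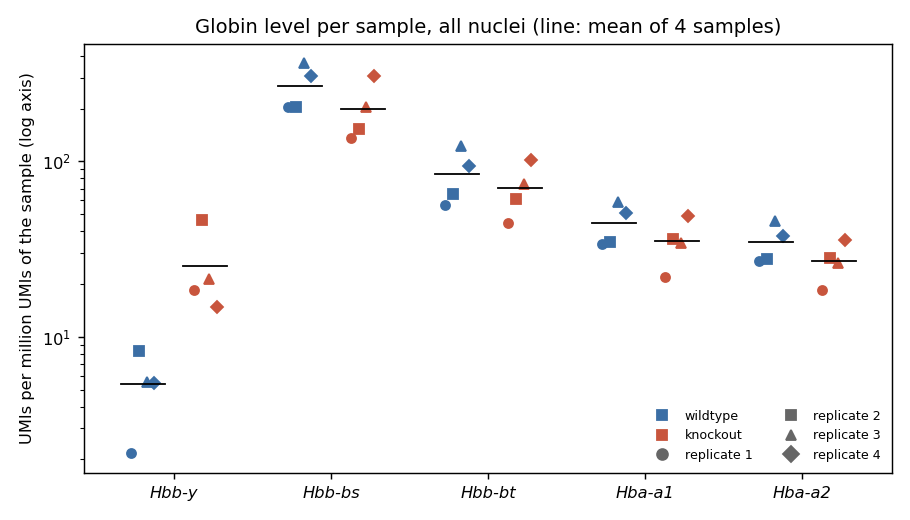
Level of each globin gene in CPM (log axis), 1 point per sample, wildtype in blue and knockout in red, with a black line at the mean of 4 samples. Hbb-y runs from 2.16 to 8.25 in the wildtype and from 14.8 to 46.1 in the knockout samples, while the adult genes overlap between the groups.

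The summed level of the 5 genes was 323, 340, 594 and 493 CPM in the wildtype and 239, 323, 360 and 507 CPM in the knockout samples, so it differed more within a group than between the group means of 438 and 357 CPM. The proportions of the adult genes varied less across these libraries than their levels did. Hba-a1 over Hba-a2 lay between 1.17 and 1.37. Hbb-bs over Hbb-bt lay between 2.95 and 3.59 in the wildtype and between 2.49 and 3.03 in the knockout samples. The 2 adult alpha genes over the 3 beta-like genes, Hbb-y included, lay between 0.199 and 0.247, highest in knockout replicate 2. On the log2 scale the correlation of each adult gene with the summed level over the 8 samples was 0.969 to 0.991, whereas that of Hbb-y was -0.33. Each gene is part of that sum, to which Hbb-bs gave the most UMIs (46302) and Hbb-y the fewest (3305). A high r is therefore partly built in for the larger parts. The 5 other genes most like the sum were Gm1043 (r = 0.967), Vash2 (0.953), Kalrn (0.949), Erc2 (0.948) and Slc26a8 (0.943). Each r is a description over 8 libraries that also share depth and preparation.

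Hbb-y took a larger share of the beta-like UMIs in every knockout sample than in any wildtype sample. The share, Hbb-y over the sum of Hbb-y, Hbb-bs and Hbb-bt, was 0.823%, 2.97%, 1.13% and 1.35% in wildtype replicates 1 to 4. It was 9.37%, 17.8%, 7.11% and 3.50% in knockout replicates 1 to 4. The nearest samples were wildtype replicate 2, with an exact 95% interval of 2.58 to 3.40%, and knockout replicate 4, with 3.13 to 3.91%. These binomial intervals cover counting error only. The group means were 1.57% ± 0.96 and 9.44% ± 6.05 (SD, n = 4 each), a difference of 7.87 percentage points (exact two-sided permutation test, p = 0.0286, the smallest that 4 against 4 can give). The share does not change with library size. With the replicate numbers as pairs, the exact sign-flip test gave p = 0.125, the smallest it can give with 4 pairs. Leaving out knockout replicate 2 lowered the difference by over 1.5 times, to 5.09 points.

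Hba-x, the embryonic alpha-like gene and no member of the set, was set beside Hbb-y. Its level was 0.466, 2.90, 0.757 and 0.812 CPM in the wildtype and 2.72, 4.66, 3.61 and 2.10 CPM in the knockout samples. Wildtype replicate 2 lay inside the knockout range, and the log2 fold change was 1.45 ± 0.47 (SE; edgeR adjusted p = 0.115). The call changed with the replicate block (1.49, edgeR adjusted p = 0.0198, with 3.68% of genes called higher in that fit) and with DESeq2 (adjusted p = 0.0408). Within the clusters Hba-x was called higher in cluster 1 (2.15, edgeR adjusted p = 0.0265, with 2.54% of genes called higher in that fit). In knockout replicate 2, 1 nucleus of cluster 1 held 39 of the sample's 159 Hba-x UMIs. As a share of the alpha-like UMIs Hba-x made up 0.760%, 4.46%, 0.720% and 0.914% in the wildtype and 6.30%, 6.80%, 5.62% and 2.44% in the knockout samples. Wildtype replicate 2 was the highest wildtype sample and knockout replicate 4 the lowest knockout sample for both embryonic genes. Over the 8 samples the correlation of the log2 levels of Hbb-y and Hba-x was 0.921, as a description.

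**Figure D2:**
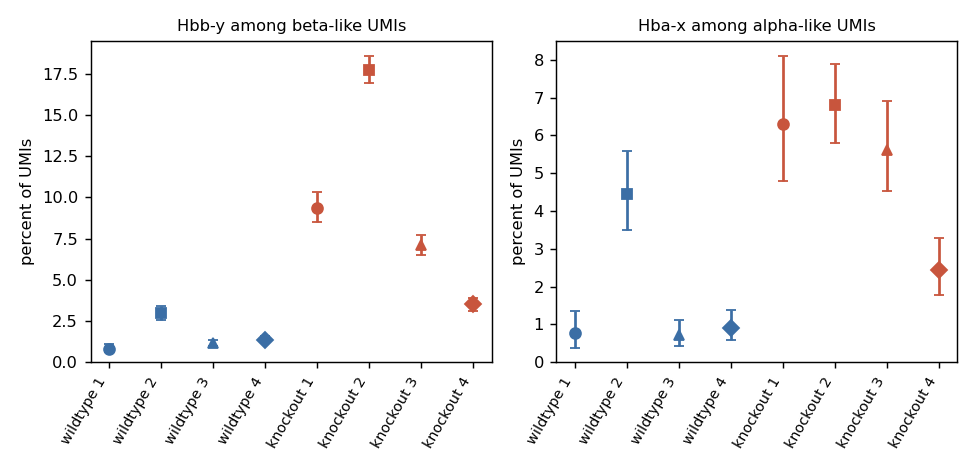
Left, Hbb-y as a percent of Hbb-y, Hbb-bs and Hbb-bt UMIs; right, Hba-x as a percent of Hba-x, Hba-a1 and Hba-a2 UMIs, 1 point per sample with exact 95% binomial bars (counting error only). On the left the knockout samples (3.50 to 17.8%) lie above the wildtype samples (0.823 to 2.97%), and on the right wildtype replicate 2 (4.46%) lies above knockout replicate 4 (2.44%).

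The rise of Hbb-y was seen in most clusters of nuclei. Tested within the 7 clusters, Hbb-y was called higher in the knockout in 6, and no adult globin was called in any, so 6 of 35 tests of a globin gene in a cluster passed. The cluster tests share the same libraries, so the 6 calls are not 6 separate observations. The share of all genes called higher was 2.54%, 3.92%, 1.48%, 1.17%, 0.868%, 0.352% and 0.578% in clusters 1 to 7. The share called in either direction was 4.84%, 9.11%, 3.36%, 4.29%, 1.77%, 0.779% and 1.03%. The log2 fold change of Hbb-y was 2.80 ± 0.65 (SE) in the upper-layer-like cluster 1, with an edgeR adjusted p of 0.0210. It was 2.20 and 2.04 in the deep-layer-like clusters 2 and 3 (edgeR adjusted p = 0.00202 and 0.00482). In the apical progenitor-like cluster 4 it was 2.12, and in the intermediate progenitor-like cluster 5 it was 2.53 (edgeR adjusted p = 0.000845 and 0.000687). In the unnamed cluster 7 it was 2.51 (edgeR adjusted p = 0.000862). The cluster 1 call was lost without wildtype replicate 1, 3 or 4 (edgeR adjusted p = 0.0542, 0.0543 and 0.0640). Without knockout replicate 2, which held the cluster 1 nucleus with 577 Hbb-y UMIs, the log2 fold change there was 1.499 (edgeR adjusted p = 0.0126), and without nuclei of 5 or more globin UMIs it was 1.80 (edgeR adjusted p = 0.00299).

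Cluster 6 was the exception, with a log2 fold change of 1.24 ± 0.60 (SE; edgeR adjusted p = 0.524), and Hbb-y levels of 1.13 to 26.2 CPM in the wildtype and 7.56 to 26.5 in the knockout samples. Its highest wildtype library was replicate 2, which held 1 cluster 6 nucleus with 44 Hbb-y UMIs. Without that replicate the log2 fold change was 2.40 (edgeR adjusted p = 0.0334). In each of the other clusters the highest wildtype sample was below the lowest knockout sample in Hbb-y level. Whether the fold change differs between clusters was not tested.

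The adult globins had a negative log2 fold change in 28 of 28 tests of a gene in a cluster, from -0.55 for Hbb-bs in cluster 4 to -0.05 for Hba-a1 in cluster 7, and edgeR and DESeq2 each called 0. An unadjusted edgeR p under 0.05 was seen in 3 of the 28. The 28 tests share their libraries, so their common sign is not 28 separate observations, and 21 of 28 were negative without wildtype replicate 3. With the replicate number as a block, Hbb-bs was called lower in clusters 1, 4 and 5 (log2 fold changes of -0.45, -0.58 and -0.51, edgeR adjusted p = 0.0142, 0.0201 and 0.0400). In those fits 3.34%, 2.96% and 0.934% of all genes were called lower.

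**Figure D3:**
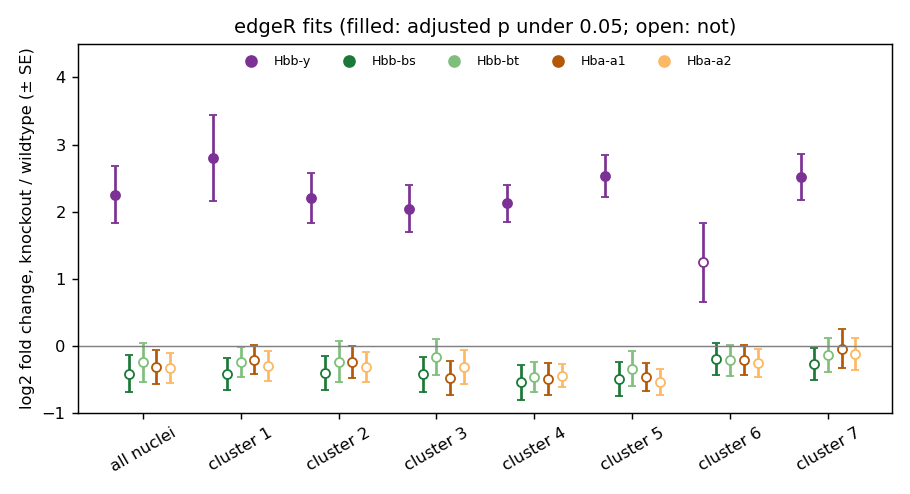
Log2 fold change, knockout over wildtype, of each globin gene over all nuclei and in each cluster, with bars of 1 SE; filled points passed an adjusted p of 0.05. Hbb-y lies between 1.24 (cluster 6, open) and 2.80 (cluster 1), and the adult genes lie between -0.55 and -0.05 with no filled point.

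Single globin UMIs were spread over a large part of all nuclei. At least 1 UMI of the 5 genes was found in 43338 of 67319 nuclei, and 35.6% of nuclei had none. The share of nuclei with a globin UMI was 59.2%, 59.1%, 82.3% and 73.5% in wildtype replicates 1 to 4. It was 45.5%, 58.4%, 63.3% and 74.0% in knockout replicates 1 to 4, so the groups overlapped. With every nucleus thinned to 1400 UMIs, which kept all nuclei since the lowest total was 1496, the shares were 37.1%, 36.9%, 56.4% and 48.4% in the wildtype. They were 27.2%, 34.5%, 40.2% and 50.8% in the knockout samples. Most globin-positive nuclei held little: 23144 had 1 UMI, 12320 had 2, 6892 had 3 to 4 and 901 had 5 to 9. Only 45 had 10 to 19 and 36 had 20 or more, up to 808.

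By gene, Hbb-bs was found in 46.4% of nuclei, Hbb-bt in 19.5%, Hba-a1 in 10.5%, Hba-a2 in 8.33% and Hbb-y in 3.52%. Hbb-y was found in 0.610%, 1.83%, 1.64% and 1.41% of nuclei of the wildtype samples and in 3.84%, 8.21%, 6.10% and 3.30% of the knockout samples. Of these nuclei 95.9% in the wildtype and 93.8% in the knockout held exactly 1 Hbb-y UMI. The variance of globin UMIs over nuclei divided by their mean ran from 1.52 in wildtype replicate 3 to 61.3 in knockout replicate 2. Among nuclei with fewer than 5 globin UMIs it was 0.837 to 1.03, a range that the cap on the counts itself lowers.

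The number of globin UMIs per nucleus hardly differed between clusters. Pooled over samples, it was 1.21, 1.14, 1.22, 1.10, 1.10, 1.28 and 1.20 in clusters 1 to 7, whose median depth ran from 2349 to 3121.5 UMIs. The share of nuclei with a globin UMI was 61.8% to 65.6%, and 38.0% to 45.2% after thinning. In CPM the clusters differed more. The mean of the wildtype samples ran from 368 CPM in cluster 7 to 504 CPM in cluster 5. That of the knockout samples ran from 320 CPM in cluster 4 to 414 CPM in cluster 1. Within a sample the cluster with the most globin UMIs per nucleus had 1.11 to 1.39 times the lowest, except in knockout replicate 1, where cluster 6 had 2.01 times cluster 7. That cluster held 1 nucleus with 272 globin UMIs. Pooled over samples, no cluster stood far above the others in globin UMIs per nucleus, and the source of these UMIs was not tested.

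**Figure D4:**
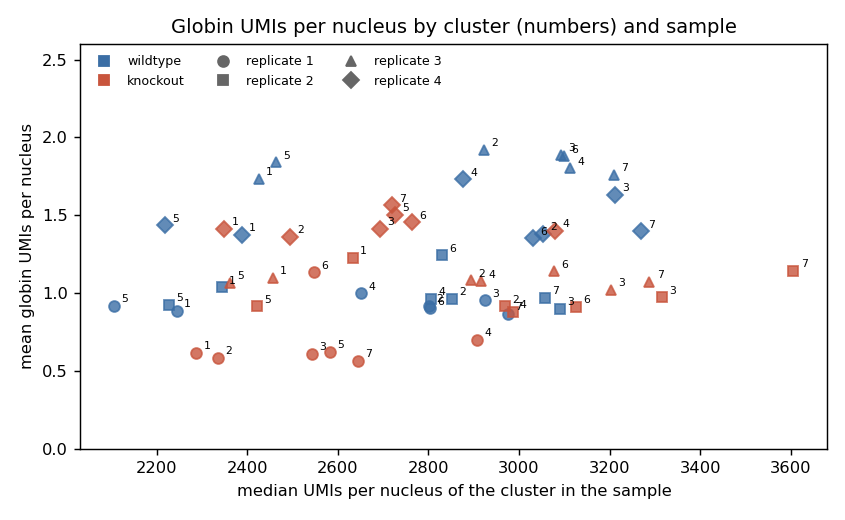
Mean globin UMIs per nucleus against the median UMIs per nucleus, 1 point per cluster (number) and sample (colour for genotype, shape for replicate). Points group by sample, with wildtype replicate 3 highest (1.73 to 1.92) and knockout replicate 1 mostly lowest (0.565 to 1.13), and show little order by cluster or depth.

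Globin UMIs also rose less than depth did. With the nuclei of each sample ordered by total UMIs and split into 4 equal parts, the deepest part had 1.94 to 2.24 times the UMIs of the shallowest. Its globin UMIs per nucleus were 1.14 to 1.65 times as many, and its mitochondrial UMIs 2.47 to 3.18 times as many. The globin level in CPM therefore fell from the shallowest to the deepest part in 8 of 8 samples, for example from 784 to 445 CPM in wildtype replicate 3. Mitochondrial UMIs made up 1.66% to 2.31% of all UMIs in the wildtype and 1.70% to 2.32% in the knockout samples. Whether these globin UMIs came from the nuclei themselves or from RNA outside them was not tested.

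The pooled Hbb-y share of beta-like UMIs was 3.72% to 4.81% in clusters 2 to 7 and 7.99% in cluster 1. Without nuclei of 5 or more globin UMIs it was 4.36% in cluster 1 and 3.47% to 4.57% in the others. The share of Hbb-bt among adult beta-like UMIs was likewise similar over clusters, 23.0% to 25.6%. Removing the nuclei of 5 or more globin UMIs left the genotype difference in Hbb-y, with levels of 2.09, 6.26, 5.07 and 4.74 CPM in the wildtype and 14.2, 27.5, 20.5 and 11.5 CPM in the knockout samples. The log2 fold change was then 2.04 (edgeR adjusted p = 0.00944). The Hbb-y share of beta-like UMIs was then 1.45% and 7.53% on average (exact two-sided permutation test, n = 4 each, p = 0.0286). Thus the difference between genotypes was present in the nuclei that hold 1 to 4 globin UMIs. In the same nuclei Hba-x was called higher in the knockout (edgeR adjusted p = 0.0339).

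A small number of nuclei held far more globin than the rest. The 36 nuclei with 20 or more globin UMIs, a threshold set after seeing the data, were 0.0535% of nuclei and held 4.24% of all globin UMIs. They held 23.5% of all Hbb-y UMIs, against 3.23% of those of Hbb-bs and 5.05% of those of Hba-a1. They came from 8 of 8 samples, 24 wildtype and 12 knockout, and from all 7 clusters. Their median total was 3255.5 UMIs against 2765 in other nuclei, their median gene count 1729.5 against 1532 and their median deposited doublet score 0.155 against 0.135. Globin made up a median of 1.59% of their UMIs.

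These nuclei fell into kinds by their beta-like UMIs. In 25 of the 36 no Hbb-y UMI was found, in 5 Hbb-y made up 1.45% to 4.72%, and in 6 it made up 52.2% to 94.3%. The gap between these ranges holds at 20 or more globin UMIs only, since 5 nuclei with 10 to 19 had 8.33% to 36.4%. The 6 nuclei rich in Hbb-y were 2 wildtype and 4 knockout nuclei from 5 samples and 5 clusters. Summed over these 6 nuclei there were 761 Hbb-y, 33 Hbb-bs, 45 Hbb-bt, 181 Hba-a1, 110 Hba-a2 and 68 Hba-x UMIs. Summed over the 25 nuclei without Hbb-y there were 1121 Hbb-bs, 313 Hbb-bt, 183 Hba-a1, 140 Hba-a2 and 0 Hba-x UMIs. Hba-x, which did not enter this division, was 18.9% of alpha-like UMIs in the former, but 2 nuclei held 39 and 25 of the 68 UMIs and 2 of the 6 held none. In the latter 0 of its UMIs were found.

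The nucleus with the most globin, in cluster 1 of knockout replicate 2, held 808 globin UMIs, 20.2% of its 3998. Of these 577 were Hbb-y, 120 Hba-a1, 76 Hba-a2, 32 Hbb-bt and 3 Hbb-bs, and it held 39 Hba-x UMIs besides. The next, in cluster 3 of wildtype replicate 4, held 365 globin UMIs, of which 234 were Hbb-bs, 70 Hbb-bt and 0 Hbb-y. A nucleus in cluster 4 of knockout replicate 1 held 77 Hbb-y among 97 globin UMIs, and 1 in cluster 6 of wildtype replicate 2 held 44 among 96, with 25 Hba-x UMIs. Nuclei of both make-ups were therefore seen in both genotypes, and so few nuclei give no comparison between them.

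**Figure D5:**
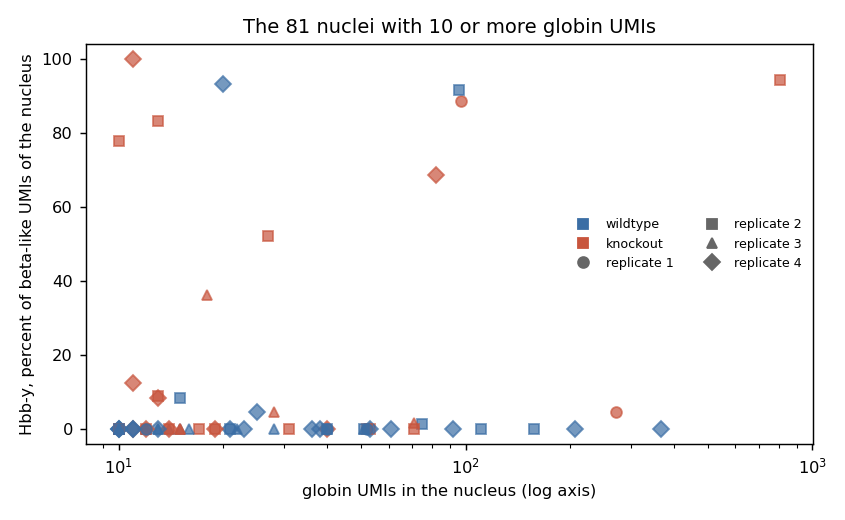
The 81 nuclei with 10 or more globin UMIs: globin UMIs in the nucleus (log axis) against Hbb-y as a percent of its beta-like UMIs, wildtype in blue and knockout in red, shape for replicate. Most lie at or near 0%, and 9 lie above 50%, among them the nucleus with 808 globin UMIs.

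Other genes of red cells were set beside the globins in these 36 nuclei, as counts with exact Poisson intervals that cover counting error only. Slc25a37 (mitoferrin-1), which carries iron into mitochondria for haem synthesis, had 8 UMIs in 5 of the 36 nuclei, 35.6 times its level per UMI in other nuclei (95% interval 15.3 to 70.9). All 8 were in nuclei without Hbb-y. Fth1 (ferritin heavy chain) was 2.30 times as high (1.88 to 2.79) and Ftl1 (ferritin light chain) 1.57 times (1.33 to 1.84). The nucleus with 808 globin UMIs held 32 of the 105 Fth1 UMIs, and without it the mean Fth1 UMIs per nucleus were 1.78 times those of other nuclei. Tspo2, a membrane protein of maturing red cells, had 3 UMIs, a ratio of 22.7 (4.66 to 67.3). The genes named here had raised ratios, and others of the lists did not. Of 21 genes of haem synthesis, iron and globin handling 12 had a ratio over 1, and 7 had 0 UMIs in the 36 nuclei. Of 11 red cell membrane and skeleton genes 5 were over 1 and 4 had 0 UMIs. Of 7 erythroid factors 4 were over 1 and 1 had 0 UMIs, and of 7 maturation genes 6 were over 1. The share of all genes over 1 is not given here, so these counts are not read as an excess. In the 982 nuclei with 5 or more globin UMIs, the genes outside the globins with the highest ratios were Rspo2 (2.49), Htr4 (2.46) and Ttr (2.34). The Ttr ratio was 0.845 within samples, and Ttr was highest in wildtype replicate 3, which gave 395 of those nuclei.

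Over all nuclei, other genes of red cell biology gave few calls. Of 7 erythroid factors tested, such as Bcl11a, the known repressor of embryonic globin genes, edgeR and DESeq2 each called 0. An unadjusted edgeR p under 0.05 was seen in 3 of the 7. Over all 13927 genes tested, 2666 had an unadjusted edgeR p under 0.05, and DESeq2 called 1215. Bcl11a measured 523 to 610 CPM in the wildtype and 608 to 738 CPM in the knockout samples, with a log2 fold change of 0.24 ± 0.09 (SE; edgeR adjusted p = 0.156). In nuclei with 5 or more globin UMIs, pooled over samples, its level per UMI was 0.976 times that in other nuclei. Of 21 genes of haem synthesis, iron and globin handling 0 were higher and 1 was lower, Slc25a37, with 1.99 to 2.88 CPM in the wildtype and 1.08 to 1.70 CPM in the knockout samples. Its log2 fold change was -0.79 ± 0.17 (SE; edgeR adjusted p = 0.0236). DESeq2 called 3 of these genes, with Bpgm (-0.33) and Urod (0.45) besides, at edgeR adjusted p of 0.0591 and 0.0695. Of 10 red cell membrane and skeleton genes 1 was lower, Dmtn (dematin), by -0.85, and of 7 maturation genes 1 was lower, Xpo7, by -1.20 (edgeR adjusted p = 0.00143 and 5.69e-07). Xpo7 measured 369 to 419 CPM in the wildtype and 161 to 177 CPM in the knockout samples. The Bcl11a level and the calls of Slc25a37, Dmtn and Xpo7 are sums over all nuclei and are not read as a change in red cells. Which nuclei they come from was not tested, and the chromosomal positions of the 3 called genes were not compared. These 3 calls are therefore not taken as 3 separate observations. The median log2 fold changes of these 4 lists were -0.01, 0.01, -0.03 and -0.04, against 0.00 over all genes, of which 1.67% were called higher and 3.58% lower.

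Among the remaining globin genes, Cygb (cytoglobin, not a red cell protein) rose by a log2 fold change of 0.63 (edgeR adjusted p = 0.0195), from 5.64 to 7.39 CPM in the wildtype to 8.93 to 11.3 CPM in the knockout samples. Markers of blood vessels gave 1 call in the endothelial list and 1 in the mural list, both lower in the knockout. The summed level of 8 endothelial markers was 21.3 to 23.6 CPM in the wildtype and 17.2 to 18.8 CPM in the knockout samples, and each marker had UMIs in the series. Of the 7 tested, 1 was called lower, Tek, an endothelial receptor kinase (log2 fold change -1.17, edgeR adjusted p = 0.00471), while Kdr (0.47), Egfl7 (0.35) and Slc2a1 (0.13) had positive values that did not pass. The summed level of 6 mural markers overlapped, at 17.8 to 29.7 CPM in the wildtype and 19.5 to 29.2 CPM in the knockout samples. Of these 6 markers 1 was called lower, Pdgfrb (log2 fold change -0.95, edgeR adjusted p = 0.0289). Notch3 (0.22), Rgs5 (0.05) and Vtn (0.04) had positive values that did not pass. The summed level of 3 choroid plexus markers was 0.653 to 124 CPM in the wildtype and 0.293 to 2.91 CPM in the knockout samples. The part of vessels, choroid plexus or the amount of blood in the dissected tissue in these globin levels was not tested.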

How the data were processed

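The authors' deposited files give, per sample, UMI counts per gene and nucleus (whole numbers, not normalised), a table of nuclei with total counts, cluster numbers and doublet scores, and a gene table with positions in bases (another unit, deposited with no build named). Reads were processed with kallisto and bustools against mm10, per the submitters' processing notes; parameters are not given in the sources used here. The deposited hybrid doublet score never exceeds 0.500, and no further doublet caller was run.

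Counts were summed per sample, over all nuclei or per cluster, and tested with edgeR 4.0.16 (TMM, filterByExpr, quasi-likelihood test, Benjamini-Hochberg over all genes, threshold 0.05). DESeq2 1.42.0, another normalization, no filter, a replicate block, each sample left out and removal of nuclei with 5 or more globin UMIs were alternatives. Shares used exact permutation tests, and intervals are exact binomial or Poisson. On simulated data with 200 genes changed by 1 on the log2 scale, 91% were recovered over all nuclei (13927 genes) and 77.5% to 88.5% within clusters (10522 to 11935 genes). Same-numbered samples of the 2 groups, numbered by their titles, had correlated deviations (r = 0.384, 0.184, 0.183 and 0.184), all over 0.1. Of the pairs of different numbers 3 were also over 0.1 (0.276, 0.170 and 0.113), so whether the numbers pair the samples stayed unclear. The main tests used genotype only and no pairing. Pairs by number entered only the alternatives, as the replicate block and the sign-flip test. All 5 globins are described; genes most like their sum were the 5 with the highest r over 8 samples, and genes of nuclei with 5 or more globin UMIs were ranked by ratio among those with 20 or more UMIs there. The members, gene lists and tests were chosen with earlier results of these data known. Tests are limited to genes in the deposited table.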

Additional observations from a re-analysis of the deposited data

How the results depend on the processing

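Hbb-y stayed higher in the knockout under all 13 alternatives, and its log2 fold change over all nuclei was 1.78 to 2.53 with 1 replicate left out (2.26 without wildtype replicate 4, where edgeR's adjusted p was 0.0529). Leaving out 1 replicate gave -0.71 to -0.22 for Hbb-bs, -0.52 to -0.14 for Hba-a1, -0.50 to -0.15 for Hba-a2 and -0.49 to 0.01 for Hbb-bt, which was reversed at 0.0051 without wildtype replicate 3. With the replicate block the Hbb-y log2 fold change was 2.21 (edgeR adjusted p = 0.00144), and the globin calls within clusters were 9 against 6, with 5 to 7 when 1 replicate was left out; the block changed the call of no other globin gene over all nuclei except Hba-x. Pairing by replicate number left the embryonic share difference at 7.87 points (exact sign-flip p = 0.125). With 1 replicate left out it was 5.09 to 9.85 points (exact permutation p = 0.0571, the smallest 3 against 4 allows). The mean share of nuclei with 2 or more globin UMIs was 34.6% (wildtype) and 25.7% (knockout), and with 1 or more after thinning 44.7% and 38.2%. Nuclei of 5 or more globin UMIs held 11.1% (wildtype) and 9.72% (knockout) of globin UMIs on average, a group order that turned at higher thresholds: those of 10 or more held 4.51% and 5.52%, and those of 20 or more 3.95% and 4.82%. Wildtype Hbb-y rests on 51 to 202 UMIs per sample, and in wildtype replicate 1 on 50 nuclei.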
